A study of Xenopus tropicalis with 24 samples.

Results

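Wide domains of the enhancer mark H3K4me1 were described in blastula embryos of the frog Xenopus tropicalis. They are the peaks of the untreated stage 9 H3K4me1 list that span at least 10 kb. The rule took 396 of 25975 peaks (1.52%), and these hold 5.93 of the 59.0 Mb under that list (10.05%). Width in this list chose the members, so width and the score that goes with it are a description here and not a result. The series covers wild type whole embryos at Nieuwkoop and Faber stages 8, 9 and 10.5, spanning the onset of zygotic transcription and the beginning of gastrulation. Histone marks and Smad2/3, the factors that act in the nucleus on Nodal signals, were mapped by chromatin immunoprecipitation and sequencing from pools of 250 embryos, and transcripts were counted by 3' RNA-seq from 400 ng of mRNA. The Nodal-inhibited group was also wild type at stage 9 and was kept from the 4-cell stage in SB431542, an inhibitor of type I receptors that Nodal and activin share, with H3K27ac, H3K4me1 and RNA measured. Its reference is the untreated stage 9 group, and untreated embryos of stages 8, 9 and 10.5 make up the time series. Each group is 1 library, so no difference below has a replicate check or a p-value. The 95% intervals of folds (conditional binomial) cover counting error of tags only. Bars on shares of genes or domains (Clopper-Pearson) take the members as independent and are a description.

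Nucleosomes at enhancers carry monomethylation of lysine 4 on histone H3, and the active ones among them also carry acetylation of lysine 27 (H3K27ac). H3K4me3 marks promoters and H3K27me3 marks chromatin repressed by Polycomb. Most H3K4me1 peaks are short, and long stretches of it tend to lie around genes that control cell identity. In the blastula those genes are the regulators of germ layers, of the body axis and, later, of organs, many of which are not yet transcribed.

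Several features of the lists touch the results. The label of the untreated stage 9 H3K4me1 library, which chose the domains, adds that it was repeated in a named pool. No other sample label has such words. Whether the peak list includes the repeat is not stated in the label. Any effect on depth, on peak width or on comparisons with the other H3K4me1 lists was not tested. Per the labels and the submitters' processing notes, the untreated histone libraries carried multiplex adapters and were aligned with BWA, while the Nodal-inhibited libraries had no such adapters and were aligned with Bowtie. The effect of the inhibitor cannot be told apart from these steps. The inhibited H3K27ac list also shares more length with untreated H3K4me1 than with untreated H3K27ac of stage 9. Of its 39.9 Mb, 74.96% lies under the untreated stage 9 H3K4me1 list and 39.4% under the untreated stage 9 H3K27ac list. For the inhibited H3K4me1 list of 49.5 Mb these shares are 64.9% and 41.2%. Of the untreated H3K27ac lists, 77.1% of the stage 8 length and 65.4% of the stage 9 length lie under the stage 9 H3K4me1 list. Taken the other way, 58.9% of the untreated stage 9 H3K27ac length lies under the list labelled inhibited H3K4me1. Under the list labelled inhibited H3K27ac it is 45.4%. Both labels were kept, and the cause was not tested. The stage 9 H3K27ac peaks carry names with a stage 8 prefix although label and header give stage 9. The list is not a copy of the stage 8 list, since 45.0% of its length lies under the stage 8 H3K27ac list. In regions with a gene name the RNA library of inhibited embryos held 4656275 tags, and those of untreated stages 8, 9 and 10.5 held 4973283, 6659554 and 8030203 tags.

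The wide domains had a median width of 13.1 kb (interquartile range 11.2 to 16.0 kb), against 1626 bp for all H3K4me1 peaks of stage 9. The range ran from 10027 to 112074 bp, with 50 domains of 20 kb or more and 13 of 30 kb or more, on 259 scaffolds. Just inside the limit lay domains nearest to fgf8 (10031 bp), polr3e (10036 bp), olfm4 (10055 bp) and bclaf1 (10056 bp), and 1 with no annotated gene (10027 bp). Just outside lay peaks nearest to eomes (9984 bp), elovl2 (9946 bp), tes (9942 bp) and six6 (9897 bp), and 1 with no annotated gene (9924 bp). Widths ran on without a gap across the 10 kb limit. The wide domains' median GC content was 40.3%, against 41.2% over all peaks of the list.

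Most of the widest domains lay at genes that control development. The widest was in the hoxa cluster, which patterns the trunk from head to tail (scaffold 56, 1372691 to 1484764 on xenTro2). It held transcription start sites (TSS) that include those of hoxa3, hoxa5 and the microRNA mir196b. The second, of 64.7 kb, lay in the hoxc cluster (scaffold 226, 336847 to 401557) over hoxc8, hoxc10 and mir196a. The third, of 43.8 kb on scaffold 47, held bmi1, a subunit of Polycomb repressive complex 1, and spag6, a protein of the sperm flagellum. Then came nr2f2 (42.8 kb), an orphan nuclear receptor, tfap2a (40.8 kb), a regulator of epidermis and neural crest, and pax3 (34.6 kb) of the neural plate border. Further down were tbx2 (32.9 kb), sox2 (31.6 kb) of neural progenitors, pitx1 (30.3 kb) of the cement gland and hindlimb, and dlx6 with dlx5 (29.9 kb) of the ectoderm. Domains of over 20 kb also held irx1, hand2 of the heart, the ventral signal bmp4, tbx3, ventx2.1 with ventx1.1, onecut1, gata3, tbx1 and otx2 of the head.

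TSS positions were worked out from the deposited distances, and 197 of the 396 domains held at least 1 of them, for 216 genes in all. Of these, 14 domains held 2 or more. The annotation placed 249 domain centres between genes, 85 in introns and 20 at promoters, with 9 on scaffolds that have no annotated gene. Together with the nearest genes, the domains name 378 genes of the 8164 that the peak lists name at all (4.63%).

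Symbols of transcription factor families made up 82 of the 361 nearest genes (22.7%). Among genes nearest to H3K4me1 peaks of 5 to under 10 kb the share was 6.10%, and over all nearest genes it was 2.71%. The families were chosen after the nearest genes had been seen, so these shares are a description. By role, 10 of 11 Hox genes named in the files were wide domain genes, as were 19 of 35 genes of the ectoderm or nervous system, and 7 of 13 linked to pluripotency. BMP and ventral genes followed with 9 of 19, organizer genes with 8 of 17 (among them gsc, chrd, not, otx2 and lhx1) and endoderm genes with 6 of 15 (sox17b.1, sox17b.2, gata4, gata6, foxa1 and foxa2). The FGF pathway had 6 of 19 (antagonists spry1, spry2, spred2 and dusp6, the factor etv1 and flrt3), the retinoic acid pathway 4 of 13 and mesoderm 5 of 23. Counts by role include genes that were only nearest to a domain. A TSS lay inside for 4 of the 6 FGF genes, and the spred2 domain lay 434 kb from spred2. It lay inside for 8 of the 10 Hox genes, 8 of the 9 BMP and ventral genes and 6 of the 7 pluripotency genes. Nodal ligands and feedback antagonists had 0 of 7, and Nodal signal transduction had 2 of 11, the coreceptor cfc1 and the repressor tgif1. Of housekeeping genes 1 of 15 was a wide domain gene (eef1a1, a translation elongation factor), of maternal and germ plasm genes 2 of 18, and of markers of later cell types 1 of 18 (neurod1). Neither of the maternal and germ plasm genes had a TSS inside.

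Some domains lay far from any annotated gene. Of the 387 domains with an annotated TSS on their scaffold, 116 lay over 50 kb from it (30.0%), against 39.7% of all H3K4me1 peaks of stage 9. A domain of 35.6 kb lay 412 kb from plscr1, and in the RefSeq gene order of assembly UCB_Xtro_10.0 the neural plate gene zic4 is within 5 genes of plscr1. A domain of 33.6 kb lay 323 kb from csnk1g3, a kinase, with prdm6 in that range. Domains nearest to got1, gpr45, nek6, stil and rpn1 had nkx2-3, pou3f3, lhx2, foxe3 and gata2 among the same neighbours. For a count, nearest genes with a factor-family symbol of their own were left out, and the families had been chosen after seeing the nearest genes. Of the other matched nearest genes of far domains, 35 of 96 had a factor gene within 5 genes on either side (36.5%). The share was 16.5% for far peaks of 5 to under 10 kb and 14.5% over the nearest genes of all peaks. Gene order comes from that later assembly, so distances to these neighbours on xenTro2 are not given.

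**Figure D1:**
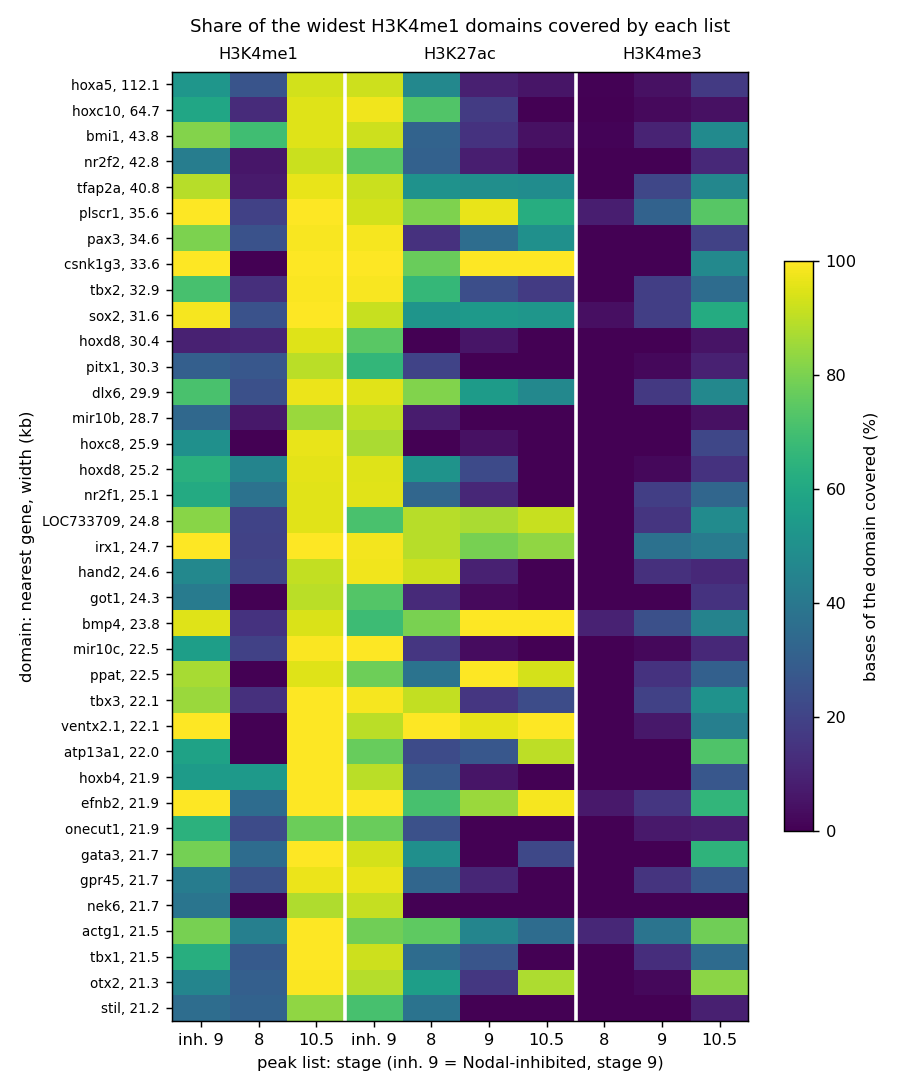
Percent of bases of the widest domains (rows: nearest gene and width in kb) that lies under a peak of each list (columns, by mark and stage, 1 library each, colour from 0 to 100%). H3K4me1 of stage 10.5 covered nearly all rows, while H3K27ac of stage 10.5 was absent from most Hox, pitx1, nr2f1 and hand2 rows and full at bmp4 and ventx2.1.

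Domains filled with H3K27ac and domains empty of it both grew in number over the stages, with others in between. At stage 10.5, 48 domains had some coverage below 50%, and 69 had from 50 to below 90%. H3K27ac covered 55.2%, 56.0% and 56.9% of all domain bases at stages 8, 9 and 10.5, while the median domain was covered to 63.8%, 76.8% and 82.6%. The base total was nearly level while the domains drew apart, and the lists themselves spanned 21.6, 34.6 and 97.1 Mb. Domains with 90% or more of their bases under H3K27ac numbered 73, 131 and 182, and domains with none numbered 46, 57 and 97, at stages 8, 9 and 10.5. Any overlap was thus found in 88.4%, 85.6% and 75.5% of wide domains, against 25.8%, 36.2% and 56.8% of all H3K4me1 peaks of stage 9. At least 50% of bases were covered in 247, 245 and 251 domains at the 3 stages (62.4%, 61.9% and 63.4%), against 18.2%, 28.5% and 50.5% of all H3K4me1 peaks of stage 9. Peaks of 5 to under 10 kb had 58.9% of their bases under H3K27ac at stage 9 and 63.0% at stage 10.5, so coverage by length at these stages was no higher in wide domains than in the next width class.

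Between stage 9 and stage 10.5, coverage was higher at the later stage in 174 domains, lower in 133 and equal in 89. It was higher by 50 points or more at stage 10.5 in 15 domains and lower by as much in 13. The otx2 domain was covered to 87.7% at stage 10.5 and 16.1% at stage 9, and the gata4 domain, at a gene of endoderm and heart, to 82.2% at stage 10.5 and 39.6% at stage 9. The gsc domain, at the homeobox gene of the organizer, had the opposite order, with 36.4% at stage 10.5 and 96.4% at stage 9. A domain of 11.7 kb, 25.01 kb from gyg1, which primes glycogen synthesis, had 4.42% at stage 10.5 and 96.2% at stage 9. No base was acetylated at either stage in 46 domains, while 11 had acetylated bases at stage 10.5 alone and 51 at stage 9 alone.

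Many domains tied at full or at no coverage, and some of the widest of these are named here. All bases were under H3K27ac at both stage 9 and stage 10.5 in the bmp4 domain (23.8 kb), the sema6d domain (20.3 kb) and the domain far from csnk1g3. The widest domains with no H3K27ac at stage 9 lay at pitx1, mir10b (in the hoxd cluster), onecut1, gata3 and, at 240 kb, nek6. At stage 10.5 they were those at hoxc10, pitx1 and mir10b, and domains nearest to hoxd8 and hoxc8 with no placed TSS inside.

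**Figure D2:**
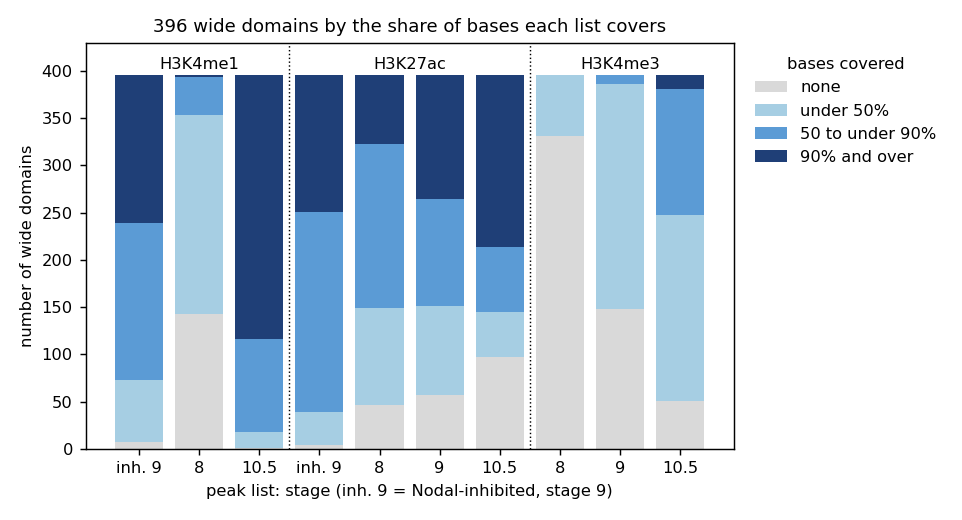
Number of the 396 wide domains in 4 classes of percent of bases covered, for 10 peak lists (x axis, by mark and stage, 1 library each). From stage 8 to 10.5 both the class at 90% and over (73, 131 and 182) and the class without H3K27ac (46, 57 and 97) grew.

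H3K4me1 covered little of these domains at stage 8 and nearly all of them at stage 10.5. At stage 8 it covered 18.6% of domain bases (median domain 11.1%), with 43 domains covered to 50% or more (10.9%, against 9.31% of all H3K4me1 peaks of stage 9), and 143 domains held no stage 8 peak. Any overlap was found in 63.9%, against 20.6% of all peaks. The list of stage 8 spanned only 7.53 Mb, against 92.5 Mb at stage 10.5, and had 11 peaks of 10 kb or more. At stage 10.5 H3K4me1 covered 92.0% of domain bases (median 97.3%), and 378 domains were covered to 50% or more (95.5%, against 74.7% of all peaks). All but 1 domain held some (99.7%, against 79.3%). Of the domains, 309 lay under a peak that was itself 10 kb or wider at stage 10.5, where the list held 1016 such peaks.

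H3K4me3 covered more of the domains at each later stage, in lists that spanned 1.59, 8.08 and 29.3 Mb. H3K4me3 covered 1.83%, 12.7% and 38.8% of domain bases at stages 8, 9 and 10.5. At stage 10.5 its peaks covered 53.3% of domains near the centre and 18.7% near the left end. That shape was not particular to H3K4me3, since H3K27ac of stage 8 had 67.2% and 26.3% at these places. H3K4me3 touched 65, 248 and 345 domains, and for stages 9 and 10.5 that is 62.6% and 87.1%, against 24.5% and 47.5% of all H3K4me1 peaks. A placed TSS lay in 197 domains, and whether the H3K4me3 peaks lie at promoters was not tested. At least 50% of bases were covered in 10 domains at stage 9 (2.53%, against 10.3%) and in 148 at stage 10.5 (37.4%, against 40.4%). Since any overlap comes more easily to a longer peak, the bases compare better: in peaks of 5 to under 10 kb H3K4me3 covered 1.96%, 12.2% and 36.6% at stages 8, 9 and 10.5. H3K27me3, the Polycomb mark, was called in 0, 1 and 3 domains at these stages, in lists of only 75, 81 and 179 peaks. The 3 domains at stage 10.5 lay at meis3, near tmem211 and on a scaffold without genes. No Hox domain held one.

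Smad2/3 was called in many of these domains at stage 10.5 and in almost none at stages 8 and 9. At stage 10.5, 174 of its 1024 sites lay in 114 domains (28.8%, against 2.48% of all H3K4me1 peaks of stage 9). Per length that was 29.3 sites per Mb in wide domains and 10.98 per Mb in the other H3K4me1 peaks. The values rose by width class. Sites covered 0.408% of bases in peaks of 2.5 to under 5 kb, 0.687% at 5 to under 10 kb and 1.08% in wide domains. Of the peaks of 5 to under 10 kb, 9.34% held a site. At stages 8 and 9, 1 site each lay in a wide domain (0.253% of domains, against 0.0693% and 0.212% of all peaks). Per length that was 0.169 sites per Mb at both stages in wide domains, against 0.320 per Mb at stage 8 and 1.05 per Mb at stage 9 in the other H3K4me1 peaks. The stage 8 site lay in a domain 255 kb from its nearest annotated gene, prkcz, and the stage 9 site in the domain at lhx1. The ventx2.1 and ventx1.1 domain, at a pair of ventral homeobox genes, held 5 sites. Domains at not (a homeobox gene of the notochord), sp5l (a Wnt target) and epha4 (an ephrin receptor) held 4 each. The Smad2/3 lists held 207, 865 and 1024 sites at stages 8, 9 and 10.5. Of these, 18, 57 and 757 lay in any H3K4me1 peak of stage 9, so most sites of stages 8 and 9 lay outside that list altogether.

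Under Nodal inhibition, most domain length was under the list labelled H3K4me1. The overlaps between lists given above touch this label too, and their cause was not tested. The inhibited list covered 73.6% of domain bases and 85.1% of the median domain (interquartile range 58.5 to 97.2%). At least 50% of bases were covered in 323 domains (81.6%, against 45.3% of all H3K4me1 peaks of stage 9). All but 7 domains held a peak (98.2%, against 53.6%). Peaks of 5 to under 10 kb were covered over 71.6% of their bases. The inhibited list held 527 peaks of 10 kb or more, and 195 of the domains lay under one of them. As the untreated list chose the domains, all 396 lie under a wide untreated peak by the rule. Of the domains, 184 held 2 or more inhibited peaks. The hoxa domain of 112 kb was crossed by 14 inhibited peaks that left 52.4% covered. Whole coverage was found at irx1, at ventx2.1, at sema6d (an axon guidance protein) and at the domains far from plscr1 and csnk1g3. Domains without any inhibited H3K4me1 peak included those nearest to hoxb9 and tfap2b, and 9.35% of a 30.4 kb domain nearest to hoxd8 was covered.

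The list labelled H3K27ac under Nodal inhibition covered 80.9% of domain bases, against 56.0% for untreated stage 9. At least 50% of bases were covered in 357 domains (90.2%, against 42.3% of all H3K4me1 peaks), and 4 domains held no such peak, against 57 in the untreated list. Any overlap was found in 98.99% of domains, against 50% of all peaks. Of all domain bases 45.3% were in both lists, 35.7% in the inhibited list alone and 10.7% in the untreated list alone. In peaks of 5 to under 10 kb the inhibited list covered 65.6% and the untreated list 58.9%. Across the 4 classes of H3K27ac at stage 10.5, in rising order, the inhibited list covered 84.8%, 84.1%, 74.2% and 80.1% of bases and the untreated stage 9 list 9.62%, 32.6%, 65.7% and 88.8%. The classes rest on untreated H3K27ac, so the order of the untreated values is not independent of the grouping.

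**Figure D3:**
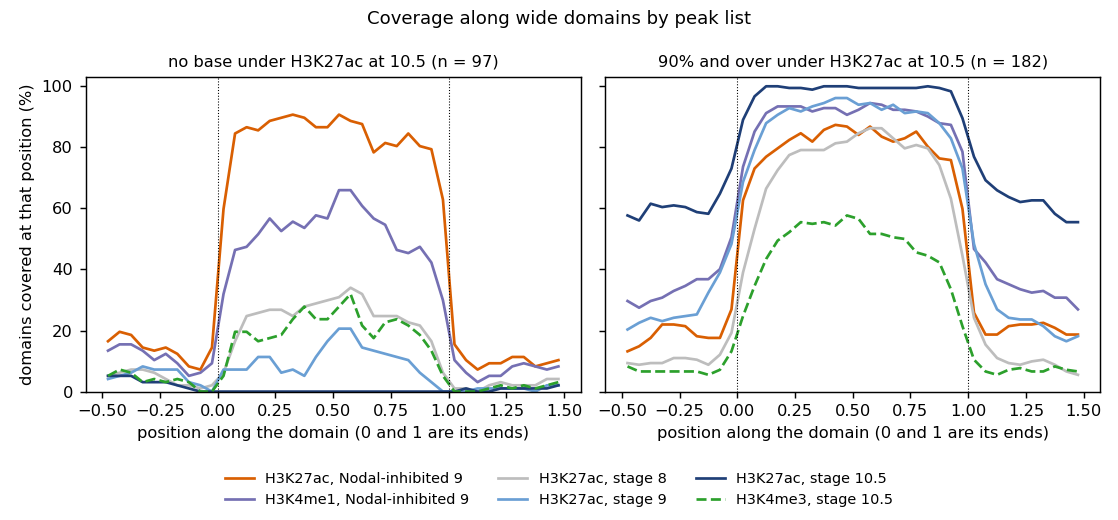
Percent of domains covered (y axis) along the domain, scaled so that its ends are 0 and 1 and shown with flanks of 0.5 domain widths, for 6 peak lists of 1 library each. The left panel has the 97 domains without H3K27ac at stage 10.5 and the right panel the 182 domains with 90% or more. The inhibited H3K27ac line is high in both panels, while the untreated stage 9 line is low on the left.

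In the Hox clusters, 14 domains on scaffolds 56, 163, 226 and 334 add up to 420 kb. The inhibited list labelled H3K27ac covered 90.9% of these bases, and inhibited H3K4me1 covered 46.8%. Untreated H3K27ac covered 35.5%, 10.2% and 2.53% at stages 8, 9 and 10.5, with a lower value at each later stage on each of the 4 scaffolds. Untreated H3K4me1 covered 95.3% at stage 10.5 and 23.8% at stage 8, and H3K4me3 covered 16.9% at stage 10.5.

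Genes in empty and filled domains differed in kind and in transcript level. Grouped by H3K27ac at stage 10.5, domains without it held 42 TSS genes, of which 28 had a factor-family symbol (66.7%). The 42 genes include pitx1, nr2f1, hand2, onecut1, tbx1, tbx5, isl1, pax2, twist1, sox1, neurod1 and 5 Hox genes, regulators of organs that form later. The symbol families do not cover every factor, and neurod1 is not counted in the 28. Domains covered below 50% held 31 genes with 22 such symbols (71.0%), domains from 50 to below 90% held 32 genes with 11 (34.4%), and domains at 90% or more held 111 genes with 19 (17.1%). The last class has splicing factors (hnrnpa1, hnrnpa2b1, hnrnpu, hnrnpc, sfpq, khdrbs1) beside bmp4, id3, ventx1.1, sox3, not, chrd, fgf8, klf17, sall1, ctnnb1 and tcf7l1.

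A called tag region in any of the RNA libraries was found for 3 of 42 genes in the unacetylated class (7.14%), 15 of 31 (48.4%), 26 of 32 (81.3%) and 90 of 111 (81.1%) in rising order of coverage. Some of these genes share a domain, so they are not independent. The share was 62.0% over all 216 genes and 61.2% over all genes named in the peak lists. The 3 were hand2, the follistatin gene fst and foxf2. Only foxf2 reached 10 tags scaled to 1e+06 named tags (CPM), with 134, 134 and 81.6 CPM at stages 8, 9 and 10.5, and its tags did not lie in the domain itself. Counted by position and without gene labels, 7 of 97 unacetylated domains held any tag region (7.22%), and the other classes had 23 of 48 (47.9%), 32 of 69 (46.4%) and 99 of 182 (54.4%) in rising order of coverage. By position the unacetylated class was again the lowest, and the 3 others lay close together. The 3' method reads polyadenylated mRNA, so microRNAs may be missed. Without them the unacetylated class had 3 of 37 genes (8.11%). In whole embryos, fewer cells of a type and less RNA per cell cannot be told apart.

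Acetylation at stage 10.5 also went with Smad2/3 and with earlier marks. A Smad2/3 site of stage 10.5 lay in 1 of the 97 unacetylated domains (1.03%) and in 87 of the 182 filled ones (47.8%). Stage 8 H3K4me1 had the opposite order, with 27.5% of bases covered in the unacetylated domains and 9.02% in the filled ones. Inhibited H3K4me1, from the arm with another aligner and no multiplex adapters, covered 50.9%, 66.2%, 74.0% and 89.99% of bases in rising order of H3K27ac at stage 10.5. Untreated H3K27ac of stage 9 rose over the same classes, from 9.62% to 88.8%. The list labelled inhibited H3K27ac had 84.8% in the first class and 80.1% in the last. The cause was not tested, and both labels were kept. H3K4me1 of stage 10.5 covered 90.5% in the unacetylated and 95.4% in the filled domains, so the mark that defined them was present in both.

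**Figure D4:**
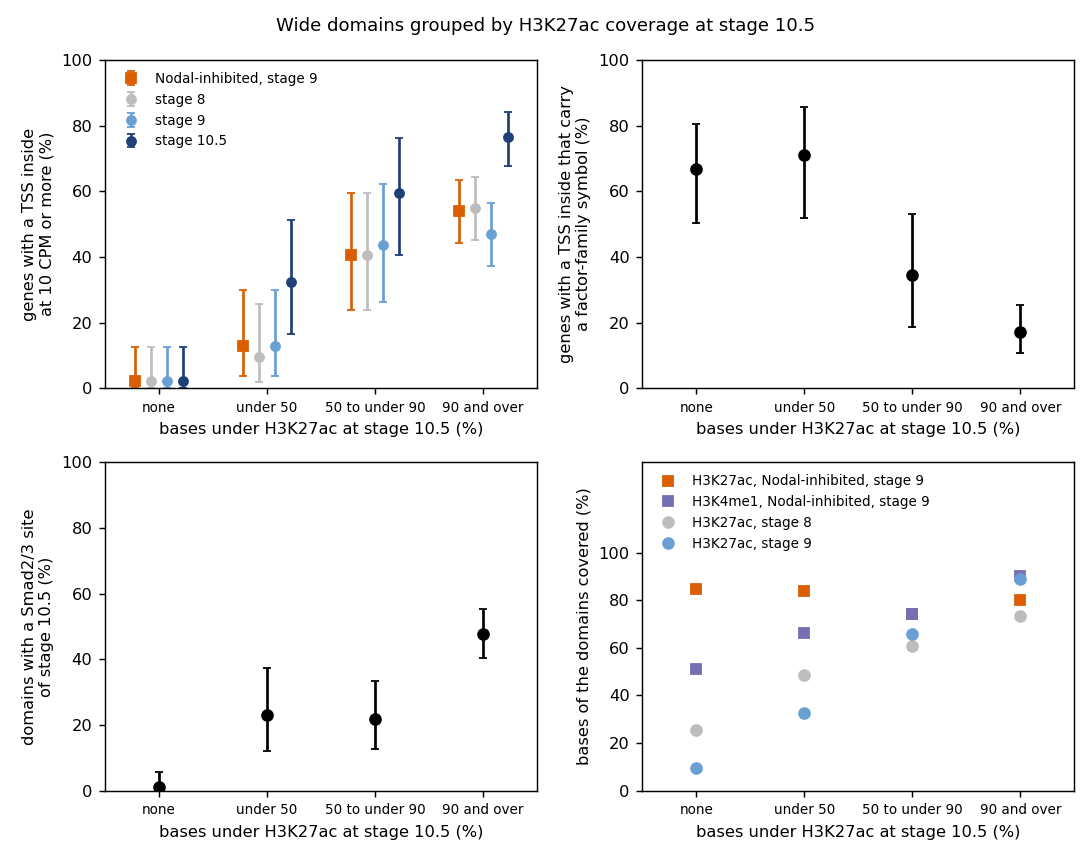
Wide domains in 4 classes of H3K27ac coverage at stage 10.5 (x axis; 97, 48, 69 and 182 domains), with 95% Clopper-Pearson bars where counts are plotted. The bars take genes and domains as independent, although some genes share a domain, and show no spread between libraries. Top: percent of genes with a TSS inside at 10 CPM or more in each RNA library, and percent with a factor-family symbol. Bottom: percent of domains with a Smad2/3 site of stage 10.5, and percent of bases under 4 other lists. Genes at 10 CPM or more and Smad2/3 sites are commonest at 90% and over, and factor symbols below 50%.

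Many genes inside wide domains had more transcripts at stage 10.5 than at stage 9. Among all 216 genes with a TSS inside, 81 were at least 2-fold higher at stage 10.5 (37.5%, against 15.2% of all genes named in the peak lists) and 6 were at least 2-fold lower (2.78%, against 8.77%). Of the 216, 117 passed the filter of 10 CPM in the higher library. Genes that were already at 10 CPM at stage 9 give a count that does not lean on genes near 0: 35 of 71 were higher at stage 10.5 (49.3%), against 21.2% of all genes at that level. Counting the nearest genes too, 106 of 378 were higher (28.0%) and 23 lower (6.08%). The median log2 ratio of all genes was 0.30 with this scaling and -0.02 with median-of-ratios scaling, under which 92 were higher and 36 lower. The share of higher among the changed genes was 82.2% and 71.9% under these scalings, against 62.8% and 48.3% over all genes.

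The genes with the largest ratios of stage 10.5 to stage 9 had at most 130 tags at stages 8 and 9. Values are tags at stages 8, 9 and 10.5. The BMP target id3, which blocks bHLH factors, had 130, 66 and 21490 tags. At stage 10.5 it was 270.0-fold higher than at stage 9 (212 to 349). Its domain was fully acetylated at both stages. The ventral homeobox gene ventx1.1 had 0, 5 and 2662 tags, 442-fold (189 to 1361). Nearly all of its tags are from the last stage, and the wide interval comes from the few tags at stage 9. Next were pnhd, a secreted protein, with 0, 3 and 1745 tags, and osr1, a kidney and mesoderm factor, with 0, 0 and 819 tags, at least 226-fold with 3 tags in place of 0. Then came tfap2a with 0, 4 and 1148 tags, irx2 with 0, 2 and 772, otx2 with 0, 1 and 680, the actin-binding gene cnn1 with 53, 44 and 3901, and the epidermal factor grhl3 with 3, 1 and 457. They were picked by this ratio, so the high stage 10.5 values are a description, and all have a TSS inside their domain.

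By role, 5 of the 9 BMP and ventral genes were at least 2-fold higher at stage 10.5 than at stage 9, and none was lower. Of these, id3, bmp4, ventx1.1 and ventx3.1 were below 10 CPM at stage 9 (9.91, 4.35, 0.751 and 0.300 CPM). They passed the filter only through stage 10.5, so they could not have been called lower. The ligand bmp4 had 2, 29 and 1120 tags, 32.0-fold (22.2 to 48.0), and bmp7.2 had 275, 959 and 8573 tags, 7.41-fold (6.93 to 7.93). Of the 8 organizer genes 6 were higher, and among these the not gene alone was at 10 CPM or more at stage 9 (35.9 CPM). The BMP antagonist chrd had 0, 3 and 472 tags, gsc had 1, 17 and 535 and not had 143, 239 and 2085. Tags of the not gene were thus present before gastrulation, and whether they are maternal was not tested. Of the 19 ectoderm and neural genes 13 had a tag region under their own name, 11 passed the filter and 7 were higher. In any of these lists, genes without such a region could not be compared. The sox3 gene, which is loaded maternally, was compared and was not past 2-fold, with 8979, 4782 and 10598 tags, 1.84-fold (1.78 to 1.90). Of the 6 FGF pathway genes 5 were higher, among them the antagonist spry1 with 16, 29 and 1097 tags. Of the 5 Wnt pathway genes 3 were higher, among them ctnnb1, beta-catenin, with 4164, 1499 and 12174 tags, 6.74-fold (6.38 to 7.11). Of the 7 pluripotency genes 3 were higher and 1 was lower. Of the 6 endoderm genes 2 were higher, foxa1 (0, 0 and 122 tags) and sox17b.1 (25, 25 and 1392 tags), whose reads can be shared with its near copy sox17b.2.

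Among list members with a tag region, 2 of 4 endoderm genes of wide domains were higher, against 8 of 8 others. Only 2 of those 4 passed the filter of 10 CPM, and both were higher. The gata4 gene, with 1, 0 and 78 tags, reached 9.71 CPM at stage 10.5 and was not compared. For ectoderm and neural genes the counts were 7 of 13 in wide domains and 8 of 10 others, and for mesoderm genes 1 of 2 and 9 of 12. The order was the opposite for BMP and ventral genes (5 of 5 against 3 of 7) and organizer genes (6 of 7 against 5 of 7). It was also the opposite for FGF (5 of 6 against 5 of 9), Wnt (3 of 3 against 4 of 10) and pluripotency genes (3 of 5 against 0 of 4). The order thus varied by list, and these differences were not tested. These counts include genes below 10 CPM at stage 9, such as bmp4, ventx1.1, gsc, chrd, foxa1 and sox17b.1. Such genes enter the comparison only when high at stage 10.5 and could not have been called lower. Among the genes lower at stage 10.5 was btg4, a maternal clearance factor that was only nearest to a domain, with 438 tags at stage 10.5 and 4855 at stage 9. The btg4 domain is 262 kb from the gene.

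**Figure D5:**
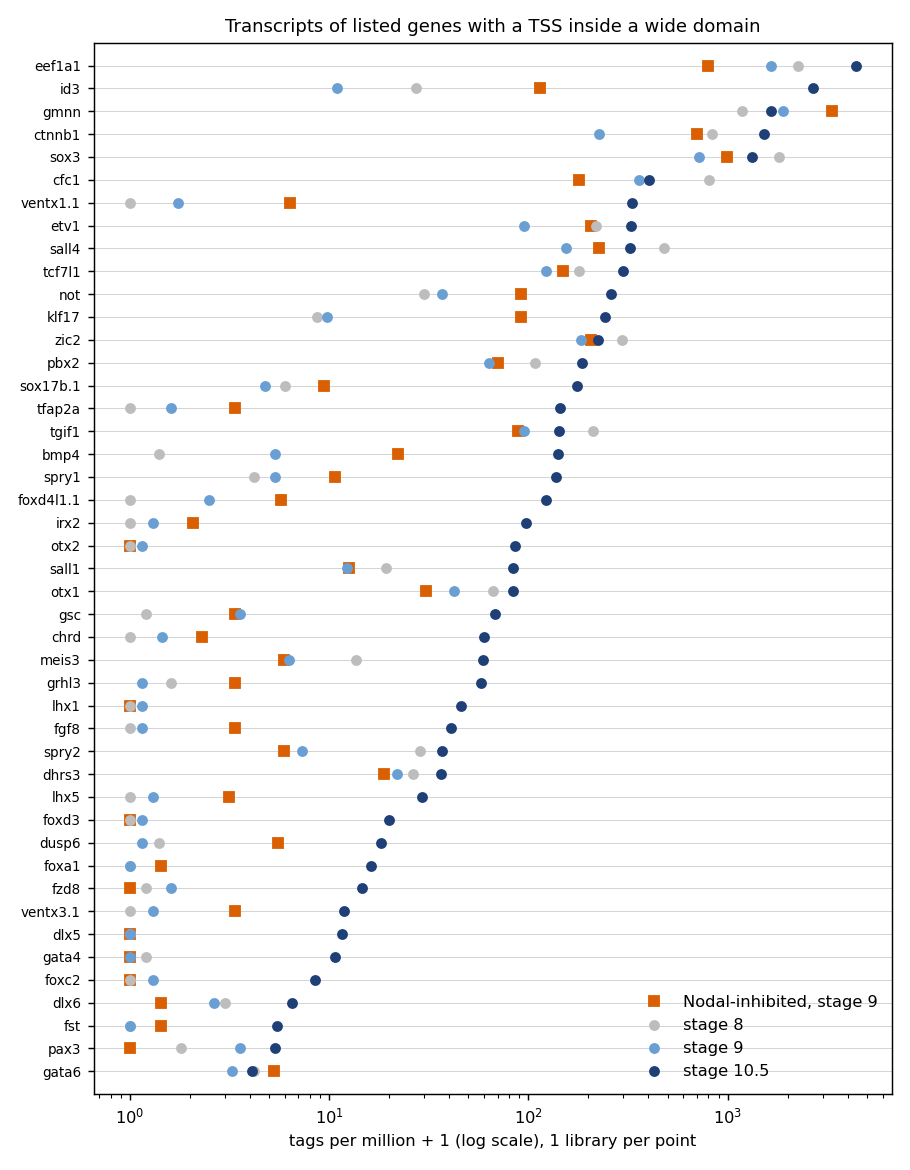
CPM plus 1 (log axis) of listed genes with a TSS inside a wide domain and a tag region, in order of their stage 10.5 level, 1 library per point. Stage 10.5 lies far to the right of stage 9 at id3 (2676 CPM at stage 10.5, 9.91 CPM at stage 9) and close to it at zic2 (221 CPM at stage 10.5, 184 CPM at stage 9).

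Between stage 8 and stage 9 few genes were higher. With the main scaling 2 of the 216 genes with a TSS inside were at least 2-fold higher at stage 9 (0.926%, against 3.64% of all genes) and 30 lower (13.9%, against 15%). That split turns on scaling, since the median log2 ratio of all genes was -0.45 with the main scaling and 0.07 with TMM, under which 10 were higher and 13 lower. With median-of-ratios scaling the counts were also 10 and 13. Over all 378 genes the main scaling gave 6 higher and 61 lower, and TMM gave 21 and 28. Higher genes made up 8.96% and 42.9% of the changed ones under these scalings, against 20.2% and 54.3% over all genes. Among the genes higher at stage 9, bmp7.2 had 144 CPM at stage 9 and 55.3 CPM at stage 8, and prmt1, an arginine methyltransferase, had 1929 CPM at stage 9 and 833 CPM at stage 8.

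Under Nodal inhibition, 26 of the 216 genes with a TSS inside were at least 2-fold higher than in untreated stage 9 embryos (12.04%, against 10.2% of all genes) and 11 at least 2-fold lower (5.09%, against 8.18%). Both shares are near those of all genes. Some of the higher genes are BMP targets or ventral genes. The id3 gene had 527 tags (113 CPM) in inhibited and 66 tags (9.91 CPM) in untreated embryos, 11.4-fold (8.83 to 15.0). The zinc finger gene klf17, a pluripotency factor, had 425 tags in inhibited and 58 in untreated embryos, 10.5-fold (7.95 to 14.0). For bmp4 the tags were 99 in inhibited and 29 in untreated embryos, 4.88-fold (3.2 to 7.66). All 3 domains held inhibited H3K4me1 over 88.6% of bases or more. The BMP and ventral list had 3 of 9 genes higher and none lower, and only those 3 passed the filter of 10 CPM in the higher library. Of these, id3 and bmp4 (4.35 CPM in untreated embryos) passed only through the inhibited library, so neither could have been called lower. The same holds for klf17 (8.71 CPM in untreated embryos). The ectoderm and neural list had none of 19 in either direction, but only 4 of the 19 passed that filter. Of its members outside wide domains 7 passed, with 4 higher and 1 lower. For BMP and ventral members outside wide domains 4 passed, with 1 higher and none lower.

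Genes of the Nodal pathway and of the organizer varied under the inhibitor. The coreceptor cfc1 had 178 CPM in inhibited and 358 CPM in untreated embryos (ratio 0.498, 0.459 to 0.539), the only Nodal pathway gene of the wide domains past 2-fold. For tgif1 the levels were 87.6 CPM in inhibited and 94.5 CPM in untreated embryos. The organizer gene gsc had 11 tags in inhibited and 17 in untreated embryos, and the interval of the ratio spans 1 (ratio 0.925, 0.392 to 2.09), while not had 424 tags in inhibited and 239 in untreated embryos, 2.54-fold (2.16 to 2.99). The lowest and the highest ratio were at genes that were only nearest to a domain: gyg1 with 186 CPM in inhibited and 6521 CPM in untreated embryos, and gsta4, a glutathione transferase, with 105 CPM in inhibited and 2.85 CPM in untreated embryos. Alignment dates in the table's header differ between the inhibited, the stage 10.5 and the other RNA libraries, and their part in these differences was not tested.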

How the data were processed

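Peak lists and a table of 3' RNA-seq tags were used as deposited, for 17 peak lists and 4 RNA libraries of 1 sample per group. Per the submitters' processing notes, BWA, Bowtie, HOMER and MACS2 were used, on xenTro2. Peak scores and distances to the nearest TSS are the authors' deposited values, and the scores were used only to take the peaks at or above a list's median. Tag counts per region were deposited by the authors, and the table's header gives that strand was ignored, with settings for bandwidth (50), regions (25), kurtosis (50) and hits (90). GC content is the deposited fraction per peak, printed as a percent. 4 per-sample columns that match no listed sample were not used. Regions without a gene name held 29.1 to 32.6% of tags and stayed out of library sizes.

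Coverage is the percent of a domain's bases under peaks of another list. TSS positions came from peak centres and deposited distances, and 7990 of 8245 promoters could be placed, at 8630 positions. Where a promoter had more than 1 candidate position, all were kept, and which is right was not tested. Tags were summed per gene and scaled to 1e+06 named tags (CPM). Genes at 10 CPM or more in the higher library were compared as log2(CPM + 1), with 2-fold as the limit, so folds of low genes are understated on that scale, while printed folds are plain ratios of CPM. Calculations used Python 3.11.15, numpy 2.4.6, pandas 2.3.3, scipy 1.17.1, matplotlib 3.10.9, and edgeR 4.0.16 in R 4.3.3 for TMM factors only. The scripts were tested on simulated data. Named genes are those of the widest domains, of the fixed lists, of the extremes of coverage and of the largest RNA ratios. Some of them are not reported here. The domains and lists were chosen with earlier results of these data known, and the factor families after the nearest genes had been seen.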

Additional observations from a re-analysis of the deposited data

How the results depend on the processing

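No paired analysis was possible because each group holds 1 library. The number of domains was 672 at 8 kb and 123 at 15 kb. Median coverage by H3K27ac at stage 9 (76.8%) was 54.0% at 15 kb and 64.6% with the peaks at or above the median score. Measured otherwise it was 56.0% of all bases, 85.6% of domains with any overlap and 61.9% of domains at 50% or more. At stage 10.5 (82.6%) the values were 56.5% at 15 kb, 56.9% of all bases and 63.4% of domains at 50% or more. Inhibited H3K4me1 (85.1%) had 78.7% with peaks at or above the median score, 73.6% of all bases and 98.2% of domains with any overlap. Alternatives chosen after seeing the data gave, at 8 kb and 15 kb, 8.38% and 16.1% for H3K4me1 of stage 8, 81.9% and 89.6% for inhibited H3K27ac and 5.11% and 13.0% for H3K4me3 of stage 9, and H3K27ac of stage 8 had 53.5% at 15 kb. For stage 9 over stage 8 (6 higher, 61 lower), TMM gave 21 and 28, median of ratios 21 and 27 and genes with a TSS inside 2 and 30, while no filter gave 14 higher and a 50 CPM filter 36 lower. For stage 10.5 over stage 9 (106 and 23), median of ratios gave 36 lower, a 50 CPM filter 69 and 14, and genes with a TSS inside 6 lower. Under inhibition (44 and 26), genes with a TSS inside gave 26 and 11. The cause was not tested, other than that fewer genes enter the stricter filters. Of the named genes' ratios past 2-fold with the main scaling, none changed direction under 3 other scalings. Of 129 such ratios 14 were under 2-fold with TMM and 16 with median of ratios. Smaller ratios were not checked for direction. The contrast of tag regions between unacetylated and filled domains kept its order in 6 alternatives added after seeing the data, at 4 to 13.7% against 78.9 to 82.9%. Intervals of folds cover counting error only, and with 1 library per group no spread between embryos is known.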
